A study of Mus musculus with 25 samples.

Results

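Small nucleolar RNAs and spliceosomal RNAs were read as gene rows of a total RNA count table. The rows were chosen by name: every row whose mouse symbol starts with Snord, Snora, Scarna or Rnu. These were 172 rows of the 46078 in the table. By name, 99 were C/D box rows (Snord), 42 were H/ACA box rows (Snora), 9 were Cajal body rows (Scarna) and 22 were U RNA rows (Rnu). Of the 172 rows, 74 had no count in any library, 9 had 1 to 49 counts in all and 89 had 50 or more counts summed over the 25 libraries. The 89 rows are described in detail, and 83 rows had enough counts to be tested among 14703 genes. The filter keeps a row that is high in only some libraries, so the 83 tested rows do not stand for all 172.

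The RNA was that of CD4 T cells sorted from mice of the strain C57BL/6NTac, which were miR-150 knock-out (KO), miR-150 knock-in (KI) or wild-type (WT). Cells were taken from mice at day 7 after the induction of EAE (experimental autoimmune encephalomyelitis, an immunization model of multiple sclerosis) or from naive mice. There were 4 KO, 4 KI and 5 WT libraries at day 7, and 4 KO, 4 KI and 4 WT naive libraries. The labels do not describe the construct behind either mutant allele, the age of the mice or whether a library is 1 mouse, so each p-value reflects the spread among these samples alone, and that spread may be technical.

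C/D box RNAs guide the methylation of ribose in other RNAs, and H/ACA box RNAs guide the change of uridine to pseudouridine, mostly in ribosomal RNA. Most vertebrate members are cut out of introns of host genes, many of which encode ribosomal proteins, while a few, such as U3, U8 and U13, have promoters of their own and act in the cleavage or folding of the ribosomal RNA precursor. Cajal body RNAs (scaRNAs) guide the same modifications on spliceosomal RNAs. The U1, U2, U4, U5 and U6 RNAs form the major spliceosome, and U11 and U12 belong to the minor spliceosome, which removes a rare class of introns. When T cells are activated and grow, ribosome production goes up, which makes this RNA family of interest in an immunized mouse.

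The sequences below are those on which the results turn. They are written 5′ to 3′ as DNA letters of the annotated RNA strand, from GENCODE M21 on mm10. Rnu1a1 and the Rnu1b rows are near-identical copies of U1, the RNA that pairs with 5′ splice sites. In Rnu1a1 (chr11:87422867-87423030, plus strand, within the Tex14 gene) the capitals mark bases 3 to 11, the stretch that pairs with the splice site.
Rnu1a1: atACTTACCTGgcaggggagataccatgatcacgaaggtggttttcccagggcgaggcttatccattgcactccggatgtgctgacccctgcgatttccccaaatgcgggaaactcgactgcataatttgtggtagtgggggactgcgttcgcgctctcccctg
In Rnu1b1 (chr3:96359953-96360117, minus strand) and Rnu1b6 (chr3:96460024-96460189, minus strand) the capitals mark bases that differ from Rnu1a1 or are inserted. Rnu1b2 (chr3:96374021-96374185, plus strand) has exactly the sequence of Rnu1b1.
Rnu1b1: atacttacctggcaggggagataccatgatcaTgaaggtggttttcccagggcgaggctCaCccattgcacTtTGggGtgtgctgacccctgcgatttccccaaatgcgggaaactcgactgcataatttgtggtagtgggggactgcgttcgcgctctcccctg
Rnu1b6: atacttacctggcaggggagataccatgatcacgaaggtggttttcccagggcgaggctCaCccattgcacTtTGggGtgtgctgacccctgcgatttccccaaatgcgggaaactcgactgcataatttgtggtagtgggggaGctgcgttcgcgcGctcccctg
Counted from 1 at the 5′ end of Rnu1a1, the 6 substitutions in Rnu1b1 were C33T, T60C, T62C, C73T, C74G and A77G, and Rnu1b6 had T60C, T62C, C73T, C74G, A77G and T156G. Rnu1b1 was identical to Rnu1a1 over 95.8% of aligned positions, and Rnu1b6 over 95.2%. The splice-site stretch was the same in all of them, so short reads from Rnu1a1, Rnu1b1 and Rnu1b6 can be told apart at few positions. Reads within Rnu1b1 and Rnu1b2 cannot be told apart by sequence.

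For C/D box RNAs the capitals mark the first TGATGA (the letters of the C box) and the last CTGA (the letters of the D box). Snord118 is U8 (chr11:69073427-69073561, plus strand) and has no annotated host gene. Snord15a (chr7:99482785-99482932, minus strand) and Snord15b (chr7:99479563-99479707, minus strand) both lie in Rps3, a ribosomal protein gene. Snord4a (chr11:78181686-78181756, minus strand) lies in an intron of Rpl23a.
Snord118: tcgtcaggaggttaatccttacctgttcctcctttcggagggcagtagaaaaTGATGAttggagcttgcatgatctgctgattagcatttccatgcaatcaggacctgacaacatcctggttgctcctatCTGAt
Snord15a: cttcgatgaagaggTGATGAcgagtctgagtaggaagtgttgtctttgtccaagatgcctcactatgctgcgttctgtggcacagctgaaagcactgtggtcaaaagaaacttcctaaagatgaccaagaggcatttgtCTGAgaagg
Snord15b: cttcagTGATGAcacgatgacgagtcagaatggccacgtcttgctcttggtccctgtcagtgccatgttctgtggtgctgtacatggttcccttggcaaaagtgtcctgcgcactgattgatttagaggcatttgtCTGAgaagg
Snord4a: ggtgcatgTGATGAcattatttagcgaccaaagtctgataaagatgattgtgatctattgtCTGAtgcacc
In the H/ACA box RNAs Snora41 (chr1:63179004-63179135, plus strand, in Eef1b2) and Snora78 (chr17:24719676-24719803, minus strand, in Snhg9) the capitals mark the ACA that stands 3 bases before the 3′ end. In Rnu12, the U12 RNA (chr15:83149644-83149794, plus strand), they mark ATTTNTG, letters like those of the site where the Sm protein ring binds.
Snora41: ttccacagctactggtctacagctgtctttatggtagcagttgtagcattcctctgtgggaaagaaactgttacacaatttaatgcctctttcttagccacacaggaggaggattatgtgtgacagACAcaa
Snora78: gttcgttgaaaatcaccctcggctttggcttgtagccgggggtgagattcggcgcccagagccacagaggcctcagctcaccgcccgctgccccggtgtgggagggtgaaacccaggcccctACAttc
Rnu12: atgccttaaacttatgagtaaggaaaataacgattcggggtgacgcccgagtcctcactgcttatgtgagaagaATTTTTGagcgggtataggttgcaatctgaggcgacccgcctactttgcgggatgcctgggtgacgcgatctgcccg

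The 4 name classes differed in these letters. TGATGA followed by CTGA was found on the RNA strand in 75 of 99 Snord rows (75.8%) and 0 of 42 Snora rows, against 5.83% of 5046 other small RNA rows of 60 to 220 bases. ACA placed 3 bases from the end was found in 35 of 42 Snora rows (83.3%) and 0 of 99 Snord rows, against 6.92% of those other rows. The first pair of letter groups was also in 11 of 22 Rnu rows, since U3 and Rnu73b are C/D RNAs by structure. ATTTNTG was found in 6 of 22 Rnu rows, against 7.87% of the other small RNA rows. Of the rows with 50 or more counts, 38 of 48 Snord rows were shorter than 100 bases, and none of the 23 Snora rows was; the median length was 82.5 bases for Snord and 132 bases for Snora. Searches were on the annotated strand only, and a match is a match of letters.

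The rows without counts had a common annotation. Of 61 rows that lay wholly inside exons of another gene on the same strand, 50 (82.0%) had 0 counts in all 25 libraries. Of 89 rows that touched no such exon, 20 (22.5%) had 0 counts, and 17 of these 20 were the copies of Snord116, brain-expressed C/D RNAs of an imprinted cluster. Snord15a and Snord15b illustrate the contrast within 1 host gene: Snord15a, in an intron of Rps3, had 224860 counts, and Snord15b, inside an annotated Rps3 exon, had 0. The 10 U3 rows (Rnu3) had 10 counts in all. Rnu7, the U7 RNA that acts in histone RNA processing, lies inside an exon of Grcc10 and had 0 counts. A count of 0 is therefore not a statement that the RNA was absent from the cells. The exceptions were 10 rows with 50 or more counts that lay wholly inside an annotated exon, among them Snora7a in Rpl32.

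Copies under other names also took reads. At 95% identity over 90% of the length, 19 of the 89 rows had at least 1 near copy among the small RNA rows of the table, and 8 of these were Rnu rows. The 4 named U1 rows, with 504 to 18320 counts each, sat beside copies outside the name rule of which 1 alone, Gm22513, had 767369 counts. The row Rnu1a1 held 1.32% of the counts of itself and its near copies outside the rule. For Rnu2-10, a U2 row, this share was 1.796%, and for Rnu6, a U6 row, it was 0.157%. Rnu12 held 99.9% and Rnu11 had no near copy. Values of the U1, U2, U5 and U6 rows are uncertain for this reason.

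All libraries were of the same labelled cell type, and the CD4 T markers fitted it: Cd4, Cd3d, Cd3e, Cd3g, Trac and Cd5 summed to 1658 to 1969 CPM, counts scaled to a common library size, against 6.75 to 21.4 CPM for the CD8 markers, 0.383 to 13.2 CPM for 4 B cell markers and 3.94 to 17.8 CPM for 4 myeloid markers. CPM here are scaled by TMM, a factor that corrects for the makeup of each library. Mir150 had 0 counts in all 8 KO libraries, 15.9 ± 9.21 CPM in KI and 16.2 ± 5.56 CPM in WT cells at day 7, and 14.3 ± 1.42 CPM in KI and 20.2 ± 4.85 CPM in WT naive cells (SD, n = 4, but 5 for WT at day 7). Total counts ran from 6024043 to 49489134, and the naive WT libraries, at 6024043 to 9351180, were the shallowest group.

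Measured per kilobase, Snord22 (U22, required in frogs for the processing of ribosomal RNA) had the highest level of the 89 rows, with a mean of 8785 CPM per kilobase over the 25 libraries. Next came Snora21 with 3409, Snord17 with 3234 and Snord15a with 2886 CPM per kilobase. The minor spliceosome rows Rnu12 and Rnu11 had 1281 and 709 CPM per kilobase. The Cajal body rows with the highest levels were Scarna2 and Scarna13, at 356 and 355 CPM per kilobase. At the other end stood Snora36b with 0.932 CPM per kilobase. A host gene was annotated for 72 of the 89 rows, and for 22 of them it was a ribosomal protein gene.

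Together the 172 rows took 0.280% to 1.015% of a library's counts. In sorted cells read in bulk, fewer cells of a type and less RNA per cell cannot be told apart. C/D box rows took 0.270% ± 0.0849 of counts in KO, 0.408% ± 0.147 in KI and 0.369% ± 0.101 in WT cells at day 7, against 0.287% ± 0.0456, 0.262% ± 0.0477 and 0.244% ± 0.0241 in naive KO, KI and WT cells (SD, n = 4, but 5 for WT at day 7). H/ACA box rows took 0.111% ± 0.0355 in KO, 0.158% ± 0.0478 in KI and 0.173% ± 0.0874 in WT cells at day 7, against 0.118% ± 0.0173, 0.104% ± 0.0199 and 0.102% ± 0.0145 in naive KO, KI and WT cells. The day 7 and naive groups overlapped in each of these 6 pairs, and the spread at day 7 was wider than in naive cells for both classes. Cajal body rows took 0.0293% ± 0.0061 in KO, 0.0341% ± 0.00392 in KI and 0.0358% ± 0.00814 in WT cells at day 7, against 0.0297% ± 0.0016, 0.0265% ± 0.00222 and 0.0258% ± 0.000938 in naive KO, KI and WT cells. In this class the 5 WT day 7 libraries, at 0.0290% to 0.0496%, all lay above the 4 naive WT libraries, at 0.0251% to 0.0271%, and the KI groups did not overlap either, while the KO groups did. U RNA rows took 0.0294% ± 0.0122 in KO, 0.0416% ± 0.0192 in KI and 0.0648% ± 0.0517 in WT cells at day 7, against 0.0269% ± 0.00344, 0.0201% ± 0.00644 and 0.0208% ± 0.00403 in naive KO, KI and WT cells.

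**Figure D1:**
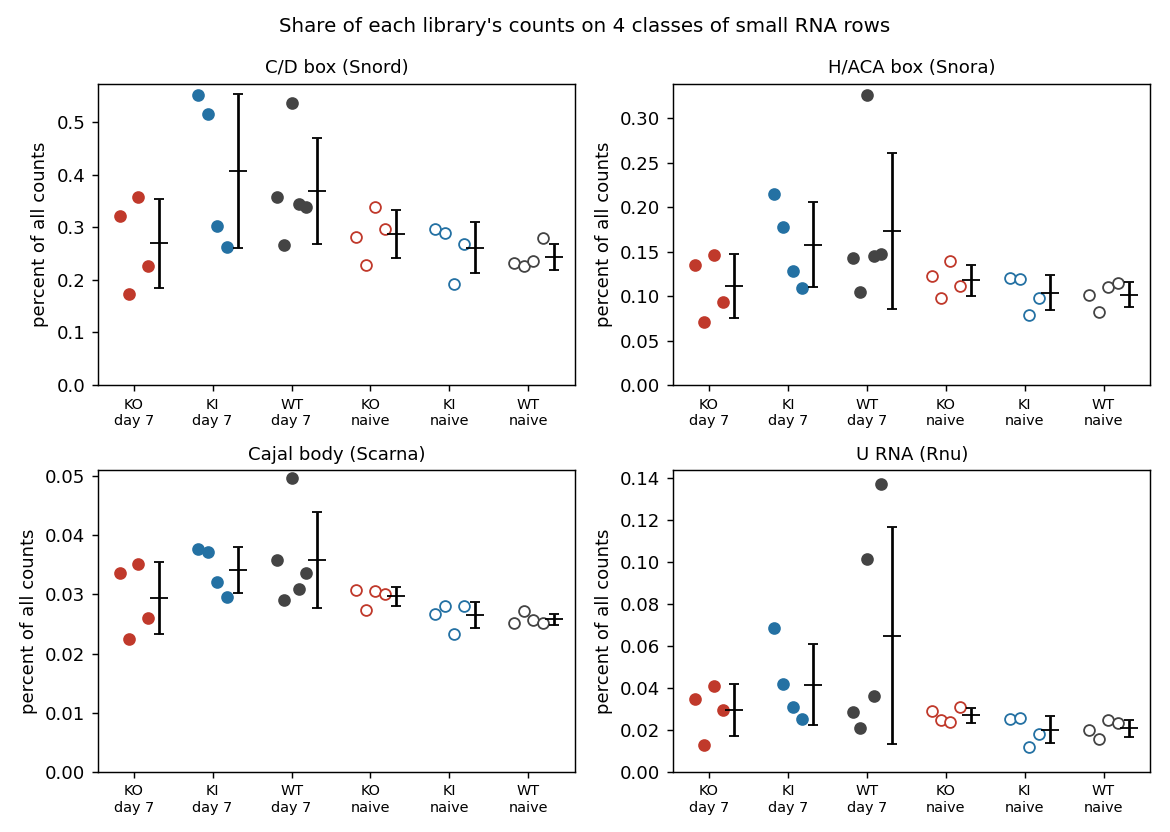
Percent of each library's counts (vertical axes, from 0) on the rows of 4 name classes, with 1 point per library, filled for day 7 and open for naive, and the mean and SD of each group beside its points. WT day 7 replicate 3 is highest in the H/ACA and Cajal body panels (0.326% and 0.0496%), KI day 7 replicate 1 is highest for C/D (0.551%), and WT day 7 replicate 5 is highest for U RNA (0.137%).

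The wide day 7 spread came from whole libraries. As a measure of each library, the median over rows of the log2 level minus its mean over the 25 libraries was taken, with 0.5 CPM added. KI day 7 replicate 1 had the highest shift for C/D rows under 100 bases, 1.64, and 0.97 for H/ACA rows. WT day 7 replicate 3 had the highest shift for H/ACA rows, 1.32, and 0.89 for the short C/D rows. Within KO at day 7, replicates 1 and 3 stood above the mean for H/ACA rows (0.27 and 0.56) and replicates 2 and 4 below it (-0.87 and -0.42). Within KI at day 7, replicates 1 and 2 stood at 0.97 and 0.64, and replicates 3 and 4 at 0.05 and -0.18. KI day 7 replicate 1 held the highest value of 34 of 48 C/D rows, and WT day 7 replicate 3 that of 14 of 23 H/ACA rows.

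**Figure D2:**
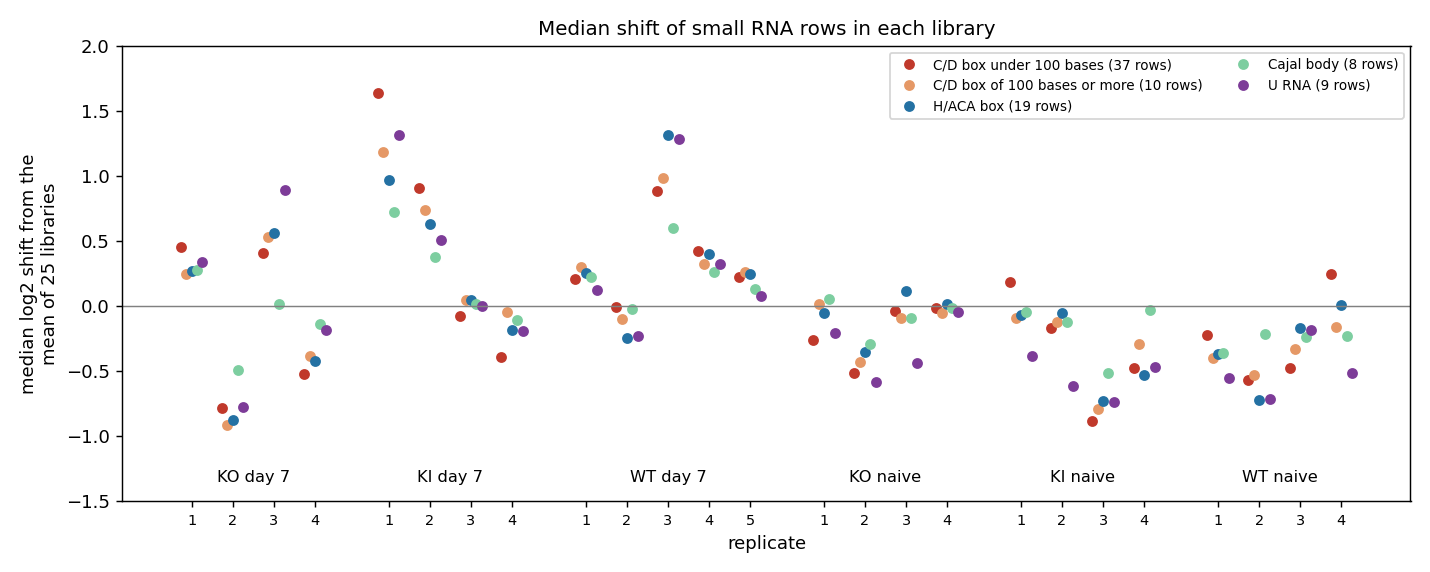
Median log2 shift of 5 sets of tested rows (colours) in each of the 25 libraries, as the log2 level with 0.5 CPM added minus its mean over the libraries. The sets move together within a library, with KI day 7 replicate 1 (C/D under 100 bases at 1.64) and WT day 7 replicate 3 (H/ACA at 1.32) highest and KO day 7 replicate 2 (H/ACA at -0.87) and KI naive replicate 3 (C/D under 100 bases at -0.88) lowest.

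The ribosomal RNA share of a library varied alongside this share. Nuclear rows that the annotation gives as ribosomal RNA, or as similar to it, took 19.2% ± 5.28 of counts in KO, 20.5% ± 1.83 in KI and 19.7% ± 1.62 in WT cells at day 7, against 19.0% ± 1.37, 16.2% ± 0.857 and 15.2% ± 1.77 in naive KO, KI and WT cells (SD, n = 4, but 5 for WT at day 7). Over the 25 libraries, the share of counts on the 172 rows and this share had Pearson's r = 0.62 (permutation p = 0.00082, adjusted 0.00492) and Spearman's rho = 0.81 (permutation p = 1e-05, the smallest that 100000 resamples can give, adjusted 6e-05). Without the 2 libraries farthest from the median, KO day 7 replicates 2 and 3, r was 0.63. In WT and KI cells both shares had higher means at day 7 than in naive cells. The relation over the 25 libraries therefore includes this group difference, and both shares are parts of the same total. Within the 13 day 7 libraries r was 0.54 (permutation p = 0.0605, adjusted 0.156) and rho 0.77 (permutation p = 0.00316, adjusted 0.00948), and r without the 2 farthest was 0.55. Within the 12 naive libraries r was 0.46 (permutation p = 0.130, adjusted 0.156) and rho 0.37 (permutation p = 0.237, adjusted 0.237), and r without the 2 farthest was 0.17. With log10 total counts over the 25 libraries, r was 0.33 (permutation p = 0.104, adjusted 0.156), rho was 0.49 (permutation p = 0.0146, adjusted 0.0293) and r without the 2 farthest was 0.36. Within the day 7 libraries r with total counts was 0.48 (permutation p = 0.100, adjusted 0.156) and rho 0.53 (permutation p = 0.0641, adjusted 0.0961), and r without the 2 farthest was 0.58. Within the naive libraries r was 0.23 (permutation p = 0.465, adjusted 0.465) and rho 0.40 (permutation p = 0.201, adjusted 0.237), and r without the 2 farthest was 0.61. Adjustment was over the 6 relations computed for each coefficient. The part of the ribosomal RNA share in the results that follow was not tested.

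The first question was whether these RNAs differ in CD4 cells at day 7 from those in naive cells. In WT cells, 82 of 83 tested rows had a positive log2 fold change, with a median of 0.74 against 0.00 over all genes tested, of which 49.7% were positive. The test called 6 rows, all higher at day 7 (edgeR's quasi-likelihood test with Benjamini-Hochberg adjustment, adjusted p under 0.05), where 2.14% of all genes were called and 1.18% were called higher, and 40 rows had an unadjusted p under 0.05. All 5 WT day 7 libraries lay above all 4 naive WT libraries in 19 of 83 rows, against 2.94% of all genes. In KI cells 80 of 83 rows were positive with a median of 1.01, or 0.65 without KI day 7 replicate 1, 2 rows were called, both higher, where 2.02% of all genes were called and 1.01% were called higher, and 60 had an unadjusted p under 0.05. All 4 KI day 7 libraries lay above all 4 naive KI libraries in 11 of 83 rows, against 4.69% of all genes. DESeq2 called 10 rows in KI cells and limma voom 9, against 3.319% and 4.897% of all genes. In KO cells 61 of 83 rows were positive with a median of 0.11, whose sign turned on single libraries: it was -0.06 without KO day 7 replicate 1 (37 of 84 rows positive), -0.07 without replicate 3 (33 of 84) and 0.29 without replicate 2. In KO cells 0 rows were called, against 0.408% of all genes, and 2 rows had an unadjusted p under 0.05. The share of all genes at an unadjusted p under 0.05 is not given here for any genotype. The counts of rows at that mark thus cannot be set against genes at large. DESeq2 and limma voom also called 0 rows in KO cells, against 1.394% and 0.1088% of all genes. Averaged over the 3 genotypes, 80 of 83 rows were positive with a median of 0.65, and 42 rows were called, all higher, where 11.2% of all genes were called and 6.16% were called higher. The averaged comparison uses the libraries of the 3 single ones and is not independent of them. The 42 were 25 of 47 C/D rows, 11 of 19 H/ACA rows, 2 of 8 Cajal body rows and 4 of 9 U RNA rows.

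These counts rest on a few libraries. Without KI day 7 replicate 1 the averaged comparison called 13 rows, without KO day 7 replicate 3 it called 19, and without WT day 7 replicate 3 it called 27, while without KI day 7 replicate 4 or KO day 7 replicate 2 it called 57. Without both WT day 7 replicate 3 and KI day 7 replicate 1, a setting chosen after seeing the data, 9 rows were called, and all 9 were among the 42; 79 of 84 rows were then still positive, with a median of 0.44. With libraries weighted by their fit (limma voom with quality weights), 8 of 83 rows were called, 7 of them among the 42. Of all genes, 9.821% were called in that setting, so these rows were called about as often as genes at large. The KO median with these weights was -0.13, with 25 of 83 rows positive, where edgeR gave 0.11. In WT cells the count was 0 without naive replicate 1 or 3, 1 without naive replicate 2 or day 7 replicate 3, 2 without naive replicate 4, and 11 without day 7 replicate 2. In KI cells it was 0 without naive replicate 2, 3 or 4 or day 7 replicate 1 or 2, 15 without day 7 replicate 3 and 28 without day 7 replicate 4. The share of all genes called with libraries left out is not given here. Counts of rows in those settings thus cannot be set against genes at large.

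**Figure D3:**
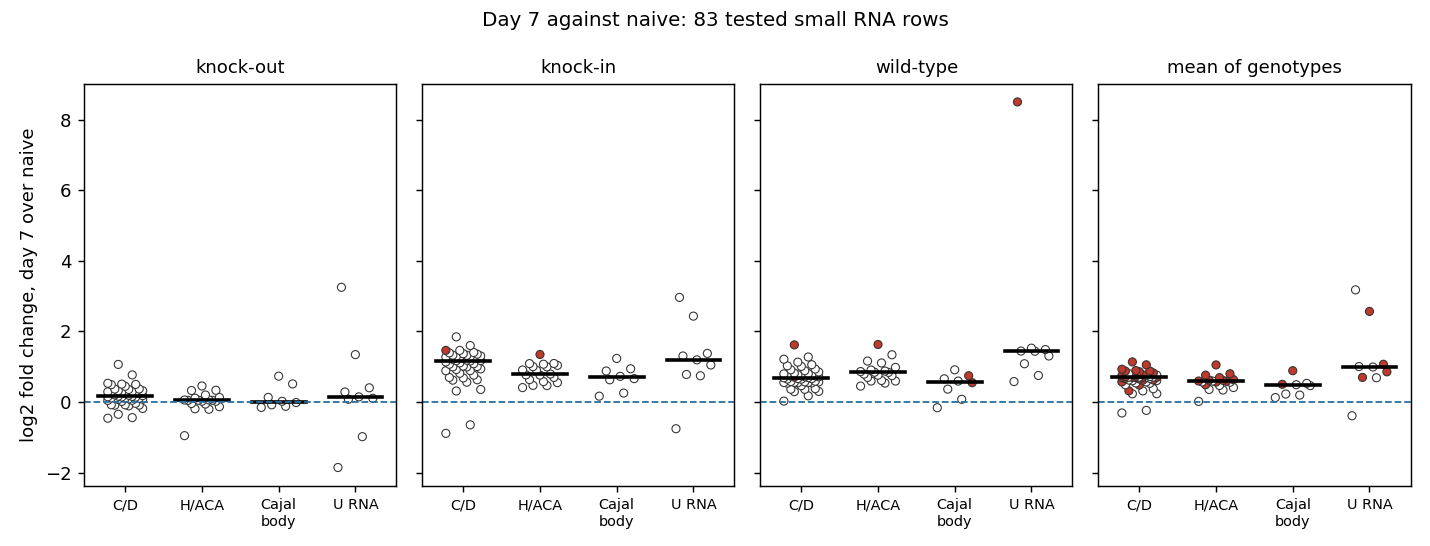
Log2 fold change of day 7 over naive for each of the 83 tested rows by class, in KO, KI and WT cells and averaged over genotypes; red points passed an adjusted p under 0.05, black bars are class medians and the dashed line is the median of all genes. Averaged over genotypes the medians were 0.70 for C/D, 0.59 for H/ACA, 0.48 for Cajal body and 0.99 for U RNA rows, and the point at 8.50 in WT cells is Rnu1a1.

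Among C/D box RNAs that act on the ribosomal RNA precursor, Snord118 (U8) had the smallest p of all rows in the averaged comparison. Snord118 had 40.4, 18.4, 47.5 and 29.3 CPM in KO, 89.3, 59.1, 46.2 and 36.3 CPM in KI and 40.1, 27.3, 168, 44.3 and 46.3 CPM in WT cells at day 7. In naive cells Snord118 had 21.2, 18.5, 24.99 and 30.0 CPM in KO, 24.7, 29.6, 18.2 and 25.3 CPM in KI and 14.8, 17.2, 24.3 and 29.1 CPM in WT libraries. All KI day 7 libraries lay above all naive KI libraries, WT day 7 replicate 2 lay below 1 naive WT library, and the KO groups overlapped. The log2 fold change averaged over genotypes was 1.14 (SE 0.223, edgeR adjusted p = 0.00112), and in WT cells it was 1.62 (SE 0.391, edgeR adjusted p = 0.0232). Without WT day 7 replicate 3, which held 168 CPM, the WT value was 0.89 (edgeR adjusted p = 0.110) and the averaged value 0.90 (edgeR adjusted p = 0.000236).

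Snord13 (U13) had 8.50, 2.82, 10.4 and 4.83 CPM in KO, 18.5, 11.5, 7.995 and 7.26 CPM in KI and 6.89, 6.76, 16.9, 8.07 and 7.63 CPM in WT cells at day 7. In naive cells it had 7.46, 3.96, 4.58 and 6.02 CPM in KO, 6.04, 5.59, 2.84 and 3.49 CPM in KI and 2.82, 4.43, 5.52 and 5.05 CPM in WT libraries. The KI and WT groups did not overlap between day 7 and naive, and the KO groups did; averaged over genotypes the log2 fold change was 0.89 (SE 0.208, edgeR adjusted p = 0.00516). Snord22 (U22) averaged higher at day 7 too, by 0.48 (SE 0.148, edgeR adjusted p = 0.0345). Its levels were 1139, 522, 1539 and 756 CPM in KO, 1779.7, 2225, 1075 and 946 CPM in KI and 1452, 887, 1909.5, 1252 and 1245 CPM in WT cells at day 7, against 1003, 742, 1353 and 1116 CPM in KO, 943, 1004, 665 and 943 CPM in KI and 724, 804, 769 and 879 CPM in WT naive cells. Every WT day 7 value of Snord22 was above every naive WT value, by a narrow margin for replicate 2.

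The other C/D rows are methylation guides or RNAs whose target is less settled. Snord15a, which lies in Rps3, had 502, 408, 866, 416 and 522 CPM in WT cells at day 7, against 320.2, 336, 348 and 329 CPM in naive WT cells. These groups did not overlap, and the log2 fold change was 0.71 (SE 0.171, edgeR adjusted p = 0.0233); without replicate 3 of day 7 it was 0.48 (edgeR adjusted p = 0.0845). Snord4a, which lies in Rpl23a, had 8.96, 5.46, 2.72 and 2.68 CPM in KI cells at day 7, against 2.58, 2.08, 1.47 and 0.758 CPM in naive KI cells. The difference in KI was 1.46 on the log2 scale (SE 0.360, edgeR adjusted p = 0.0288), and without day 7 replicate 1 it was 1.001 (edgeR adjusted p = 0.268). Snord17 and Snord55, named for their high mean CPM over the libraries, were not called in any of these comparisons; averaged over genotypes their log2 fold changes were 0.23 (SE 0.101, edgeR adjusted p = 0.146) and 0.62 (SE 0.216, edgeR adjusted p = 0.0610). Of the 47 tested C/D rows, 2 had a negative averaged log2 fold change, Snord98 at -0.31 and Snord53 at -0.24, and neither was called.

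Among H/ACA RNAs, Snora41, in the translation elongation factor gene Eef1b2, had 24.1, 11.6, 42.3 and 17.5 CPM in KO, 37.8, 41.5, 23.4 and 16.8 CPM in KI and 26.9, 14.4, 99.5, 29.2 and 27.3 CPM in WT cells at day 7. In naive cells it had 17.5, 13.5, 19.0 and 20.6 CPM in KO, 14.0, 18.8, 12.5 and 11.7 CPM in KI and 12.1, 9.93, 17.9 and 11.9 CPM in WT libraries. The groups overlapped in each genotype, by 1 library in KI and in WT cells. The averaged log2 fold change was 1.05 (SE 0.233, edgeR adjusted p = 0.0035) and that in WT cells 1.63 (SE 0.412, edgeR adjusted p = 0.0313), or 0.94 without day 7 replicate 3 (edgeR adjusted p = 0.155). Snora31, in Tpt1, was higher by 0.80 averaged over genotypes (SE 0.179, edgeR adjusted p = 0.00375). Snora78, in the noncoding gene Snhg9, had 56.0, 69.5, 24.2 and 20.9 CPM in KI cells at day 7, against 20.4, 22.5, 10.9 and 12.9 CPM in naive KI cells. Its log2 fold change in KI was 1.35 (SE 0.358, edgeR adjusted p = 0.0441) and was not called without day 7 replicate 1 (1.18, edgeR adjusted p = 0.186) or replicate 2 (1.02, edgeR adjusted p = 0.175). All 19 tested H/ACA rows had a positive averaged log2 fold change, from 0.02 to 1.05; Snora23 and Snora7a were called (0.59 and 0.61), and Snora21 and Snora73b (a U17 row, acting on ribosomal RNA cleavage) were not (0.36 and 0.41, edgeR adjusted p = 0.104 and 0.0978).

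Of the Cajal body RNAs, Scarna2, which has no annotated host, was called in WT cells and in the averaged comparison. It had 178, 104, 217.7 and 120.0 CPM in KO, 188, 206.3, 162 and 135 CPM in KI and 198, 133, 244, 169.9 and 171 CPM in WT cells at day 7. In naive cells it had 146, 117, 159.7 and 146 CPM in KO, 112, 129, 95.5 and 111 CPM in KI and 89.1, 120.4, 114 and 115 CPM in WT libraries. The KI and the WT groups did not overlap between day 7 and naive, and the KO groups did. The averaged log2 fold change was 0.50 (SE 0.102, edgeR adjusted p = 0.00152), and in WT cells it was 0.74 (SE 0.174, edgeR adjusted p = 0.0191), or 0.62 without day 7 replicate 3 (edgeR adjusted p = 0.0682). Scarna6, in Atg16l1, had 38.9, 43.2, 76.6, 41.0 and 53.2 CPM in WT cells at day 7, against 32.2, 36.2, 38.8 and 31.7 CPM in naive WT cells, a log2 fold change of 0.55 (SE 0.148, edgeR adjusted p = 0.0449). Without day 7 replicate 3 it was 0.35 (edgeR adjusted p = 0.154). Scarna13, with nearly the same level per kilobase as Scarna2, had an averaged log2 fold change of 0.13 (SE 0.0878, edgeR adjusted p = 0.405). Scarna8 was at 0.53 (SE 0.211, edgeR adjusted p = 0.109).

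Of the 89 rows 1 was driven by 1 library, in the sense that more than 50% of its summed CPM came from it. This was Rnu1a1, of which WT day 7 replicate 5 held 98.2%, with 17915 counts or 1076 CPM. The other 24 libraries had 4 to 46 counts, or 0.345 to 1.59 CPM, including 1.36, 0.768, 1.59 and 0.993 CPM in WT day 7 replicates 1 to 4. Rnu1a1 was the only gene of the whole table above 20 CPM in that library and over 8 times its highest level elsewhere. The 22 U1 copies outside the name rule, each at least 95% identical to a named U1 row, summed to 3052 CPM in that library, within the range of 1784 to 5965 CPM over the 5 WT day 7 libraries. The fitted log2 fold change in WT cells was 8.50 (SE 1.95, edgeR adjusted p = 0.0171), and without that library it was 1.02 (edgeR adjusted p = 0.360). With Rnu1a1 left out, the U RNA share in WT cells at day 7 averaged 0.0439% in place of 0.0648%.

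The next rows below the 50% mark were also U1 copies. Rnu1b1 had 44.8% of its summed CPM in KO naive replicate 4, with 300 of 504 counts, or 6.74 CPM, against at most 1.45 CPM elsewhere. On raw counts Rnu1b1 was thus above the 50% mark. Rnu1b2, with the same sequence, was highest in another library, KO naive replicate 2, at 14.7 CPM, and had 2.58 CPM in replicate 4. How reads within this shared sequence were divided between Rnu1b1 and Rnu1b2 is not given, so their separate values are uncertain. Rnu1b6 had 44.2% of its summed CPM in KO day 7 replicate 4, with 877 counts or 55.0 CPM. The row after these was Snora19, with 30.4% of its summed CPM in KO naive replicate 1. Snora19 had only 122 counts in all, 57 of them in that library. Of the 89 rows, 84 had less than 20% in any library, where an equal share would be 4%.

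Among the other spliceosomal rows, Rnu1b6 was called in the averaged comparison, at 2.57 on the log2 scale (SE 0.539, edgeR adjusted p = 0.00216), and at 1.89 without KO day 7 replicate 4 (edgeR adjusted p = 0.00758). Rnu1b6 had 3.70, 2.82, 6.17 and 55.0 CPM in KO, 7.97, 6.00, 1.34 and 1.47 CPM in KI and 5.85, 2.00, 10, 3.11 and 2.34 CPM in WT cells at day 7, against 3.59, 0.920, 0.188 and 1.89 CPM in KO, 0.572, 0.638, 0.222 and 1.21 CPM in KI and 5.33, 0.537, 1.53 and 0 CPM in WT naive cells. Rnu5g, a U5 row, was higher by 1.07 (SE 0.265, edgeR adjusted p = 0.00829). In the averaged comparison Rnu1b1 (-0.39), Rnu1b2 (1.005), Rnu2-10 (0.99) and Rnu1a1 (3.18) were not called, and Rnu6, with 95 counts, was not tested. Rnu73b, a C/D row by annotation in spite of its name, was higher by 0.69 and not called (edgeR adjusted p = 0.0565).

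The U RNAs of the minor spliceosome were both called in the averaged comparison. WT day 7 replicate 3 and KI day 7 replicate 1 held the 2 highest values of each, and their calls without these libraries are not given here. Exons of Gm28872 lie on the strand opposite Rnu11, and since the strand setting of the counting is not given, their reads may not be told apart. Rnu12 had 222.7, 53.4, 276 and 147 CPM in KO, 409, 222.8, 198 and 158 CPM in KI and 178, 125, 775, 234 and 234 CPM in WT cells at day 7. In naive cells Rnu12 had 198, 153, 121 and 194 CPM in KO, 153, 162, 58.0 and 105 CPM in KI and 104, 95.1, 145 and 115 CPM in WT libraries. Averaged over genotypes Rnu12 was higher by 0.86 (SE 0.249, edgeR adjusted p = 0.0237), and Rnu11 by 0.70 (SE 0.201, edgeR adjusted p = 0.0224). Rnu11 had 108, 51.0, 128 and 59.1 CPM in KO, 245, 182, 81.5 and 74.7 CPM in KI and 92.9, 65.0, 233, 107 and 93.5 CPM in WT cells at day 7, against 76.3, 64.9, 91.6 and 83 CPM in KO, 73.3, 80.2, 46.1 and 55.8 CPM in KI and 63.4, 44.7, 75.1 and 99.0 CPM in WT naive cells. The KO groups of Rnu12 and Rnu11 overlapped throughout, with day 7 replicates 1 and 3 high and replicate 2 low, and neither row was called within a single genotype.

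**Figure D4:**
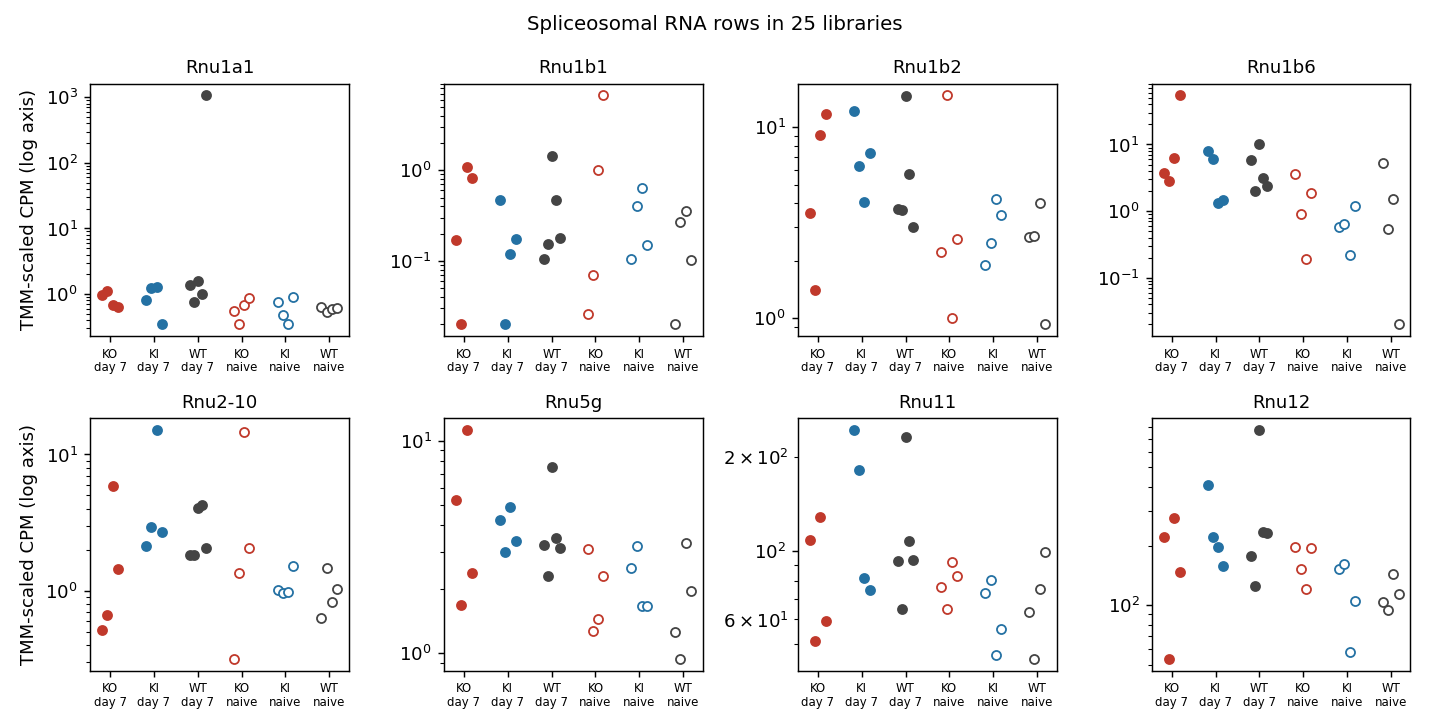
TMM-scaled CPM (log axes, which differ between panels) of 8 spliceosomal rows, with 1 point per library, filled for day 7 and open for naive; a value of 0 is drawn at 0.02. Rnu1a1 has 1 point at 1076 CPM in WT at day 7 and all others at 1.59 CPM or below, whereas the points of Rnu11 and Rnu12 spread around each group.

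Host genes differed less between day 7 and naive cells than the RNAs within them. Of the tested rows, 67 had a tested host gene, 57 different hosts in all. In WT cells the median log2 fold change was 0.70 for the rows and 0.10 for their hosts, and 61 of 67 rows lay above their host. In KI cells the medians were 1.004 and 0.07, with 64 of 67 rows above the host, and in KO cells 0.11 and 0.04, with 37 of 67. Averaged over genotypes, 20 of 57 hosts were called higher and 3 lower, where 11.2% of all genes were called and 6.16% were called higher. Across row and host pairs, which share libraries and in part hosts, Pearson's r was -0.11 in WT, 0.28 in KI and 0.27 in KO cells, which is a description only. For Snora41 the host Eef1b2 was higher by 0.25 in the averaged comparison (SE 0.0366, edgeR adjusted p = 3.02e-05), for Snord15a the host Rps3 by 0.22 (SE 0.0437, edgeR adjusted p = 0.00106), and for Snord4a the host Rpl23a by 0.18 (SE 0.0446, edgeR adjusted p = 0.00786). Snora78 was an exception, with Snhg9 at 1.35 (SE 0.366, edgeR adjusted p = 0.0152) and the row at 0.69. The 16 tested rows with no annotated host had an averaged median of 0.81 with 11 called, and the 67 with one had 0.63 with 31 called.

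**Figure D5:**
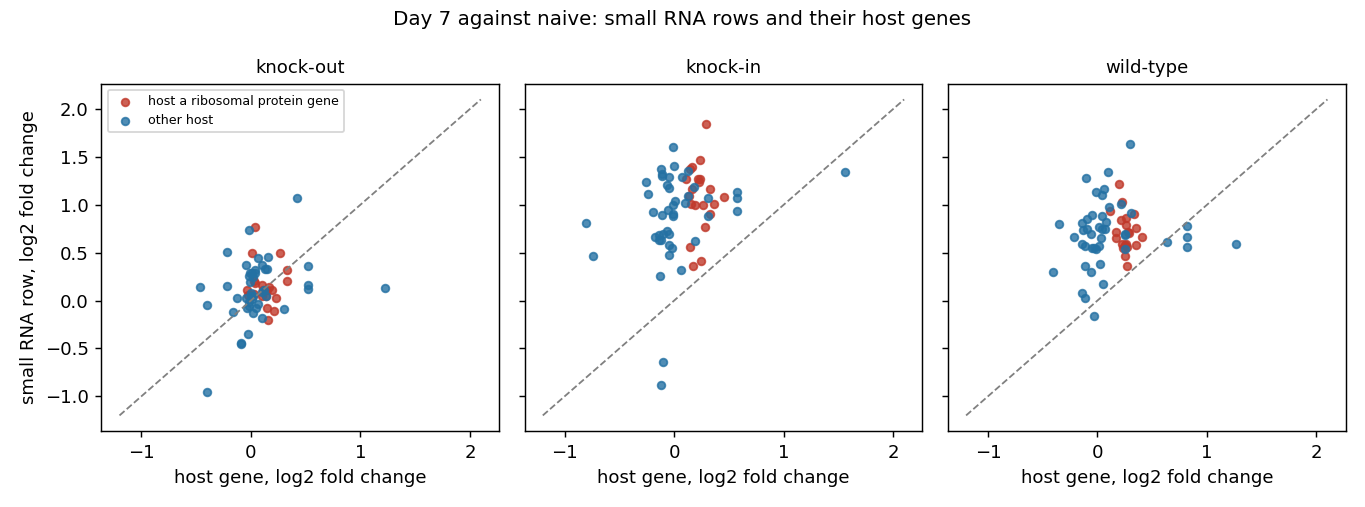
Log2 fold change of day 7 over naive for each tested row (vertical) against that of its host gene (horizontal), in KO, KI and WT cells, with ribosomal protein hosts in red and the line of equality dashed; Rnu1a1 is left out. Points lie above the line for most rows in KI (64 of 67 with Rnu1a1 counted) and WT (61 of 67), and on both sides of it in KO (37 of 67).

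The proteins that bind these RNAs were listed as the rest of the pathway, from lists chosen with earlier results of these data known. The averaged comparison called 11.2% of all genes, and called 6.16% higher. In it none of the 4 C/D core proteins was called, with Nop56 at -0.02 and Nop58 at -0.01. Of 6 H/ACA core proteins, Nhp2 was called higher, at 0.22 (SE 0.0667, edgeR adjusted p = 0.0292), and Dkc1, the pseudouridine synthase, was at -0.02. Of 12 tested factors of assembly and Cajal bodies none was called, with Nolc1 at -0.04 and Tgs1, which makes the trimethyl cap of some of these RNAs, at -0.17 (edgeR adjusted p = 0.0548). Of 14 Sm and Lsm proteins, Snrpb was called higher, at 0.19 (edgeR adjusted p = 0.0392). Of 30 genes of snRNA transcription and processing 3 were called, all lower: Ncbp1 at -0.12, Snapc3 at -0.16 and Ints8 at -0.17. List medians lay between -0.02 and 0.11, against 0.00 over all genes. Of 24 proteins specific to 1 snRNP, Sf3b1 (-0.12) and Rnpc3 were called lower. In this list and in that of 30 genes, the called share was below the 11.2% of all genes. Rnpc3 encodes a protein of the U11/U12 particle, and it had 51.9 ± 3.39 CPM in KO, 47.7 ± 3.25 in KI and 52.4 ± 3.91 in WT cells at day 7, against 63.2 ± 7.24 in KO, 63.6 ± 7.63 in KI and 68.3 ± 4.09 in WT naive cells (SD, n = 4, but 5 for WT at day 7). Its averaged log2 fold change was -0.36 (SE 0.0510, edgeR adjusted p = 2.1e-05). Thus Rnpc3 and the Rnu11 and Rnu12 rows were called in opposite directions. The Rnu11 and Rnu12 rows were highest in WT day 7 replicate 3 and KI day 7 replicate 1, and their calls without these libraries are not given. Of 11 tested noncoding host genes of 19 listed, 6 were called higher: Snhg9, Dancr (0.83), Snhg8 (0.48), Snhg15 (0.44), Snhg5 (0.43) and Gas5 (0.26), and none lower.

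The second question was whether these RNAs differ between genotypes. Between KO and WT cells, 0 of 83 rows were called in naive cells, where 0.0204% of all genes were called, and 0 at day 7, where 0.0476% were; DESeq2 and limma voom also called 0 rows. The counts rested on the filter on low counts: without one, 10 of 98 rows were called in naive cells (0.494% of all genes) and 35 of 98 at day 7 (1.17%). At day 7, 74 of 83 rows were lower in KO cells, with a median log2 fold change of -0.46, and 15 had an unadjusted p under 0.05. The median was -0.21 without WT day 7 replicate 3 and -0.27 without KO day 7 replicate 2. The 4 myeloid markers summed to 8.37 to 16.6 CPM in KO, 4.01 to 8.35 CPM in KI and 4.76 to 7.59 CPM in WT cells at day 7, and their part in the result was not tested. Rnu1a1 was at -8.05 (SE 1.69, edgeR adjusted p = 0.0593), with 1 WT library holding nearly all of its counts. Next by p were Scarna6 at -0.48 (SE 0.142, edgeR adjusted p = 0.202) and Snord15a at -0.56 (SE 0.169, edgeR adjusted p = 0.209). In naive cells, 62 of 83 rows were higher in KO cells, with a median of 0.18, and 5 had an unadjusted p under 0.05. The naive median ran from 0.11 to 0.32 with single libraries left out and was 0.42 with a block for runs of neighbouring library numbers. Between KI and WT cells the medians were 0.17 at day 7 and -0.03 in naive cells, with 4 and 0 rows at an unadjusted p under 0.05, and edgeR, DESeq2 and limma voom called 0 rows at either stage, against 0.0% and 0.0136% of all genes in edgeR. Neither median kept its sign: at day 7 it was -0.13 without KI day 7 replicate 1 (20 of 84 rows positive) and 0.42 without WT day 7 replicate 3, and in naive cells it was 0.14 without KI naive replicate 3 and 0.11 without WT naive replicate 4. Without a filter on low counts edgeR called 13 of 98 rows at day 7 (0.322% of all genes) and 1 in naive cells (0.198%). For the genotype comparisons too, the share of all genes at an unadjusted p under 0.05 is not given. Whether the rows reached that mark more often than genes at large was not tested.

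Whether the day 7 difference itself differs between genotypes was tested with an interaction term. For KO, 76 of 83 rows had a smaller day 7 difference than in WT cells, with a median interaction of -0.61, or -0.37 without WT day 7 replicate 3, and 16 rows had an unadjusted p under 0.05. None was called, where 0.0% of all genes were called, and DESeq2 and limma voom also called 0. Without a filter on low counts 31 of 98 rows were called (0.682% of all genes). The smallest p belonged to Snord15a, at -0.81 (SE 0.245, edgeR adjusted p = 0.505), followed by Scarna6 at -0.67 (SE 0.209, edgeR adjusted p = 0.505). For KI the median interaction was 0.24, 1 row had an unadjusted p under 0.05, and 0 were called by edgeR, DESeq2 or limma voom, against 12 of 98 rows without a filter on low counts (0.366% of all genes). The KI median was -0.11 without KI day 7 replicate 1 (27 of 84 rows positive), 0.48 without WT day 7 replicate 3 and 0.08 with the block. For the interactions, the share of all genes at an unadjusted p under 0.05 is not given either. The counts of rows at that mark thus cannot be set against genes at large. The genotype comparisons and the interactions share the WT libraries. Snord35a in Rpl13a, picked because it lies near Mir150 on chromosome 7, was not called between genotypes; in KO against WT cells at day 7 it was at -0.45 (SE 0.308).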

How the data were processed

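Sorted CD4 T cells gave total RNA (miRNeasy kit), from which Takara's SMARTer Stranded Total RNA-Seq kit (Pico) gave strand-marked libraries, read as paired ends on an Illumina NovaSeq, per the labels' protocols. The authors deposited raw counts per Ensembl gene ID in 1 file that holds all 25 libraries. Per the submitters' processing notes the build was mm10 and DESeq2 was used; the aligner, counter, strand setting, annotation and treatment of multiply mapped reads are not given in the sources used here. Small RNA rows depend on these choices, since many overlap exons or have copies, and the effect was not tested.

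IDs were matched to GENCODE M21, which named 45229 of 46078. The members, the gene lists and the tests were chosen with earlier results of these data known. Genotype and stage came from the labels. Counts were fitted with edgeR 4.0.16 in R 4.3.3 (quasi-likelihood test, TMM scaling, filterByExpr with a minimum count of 10, and a minimum total of 15), in 1 fit over 6 groups, with 10 comparisons, and p-values were adjusted by Benjamini-Hochberg over 14703 genes at a threshold of 0.05. Total counts were 6024043 to 49489134. Copies were found with BLAST 2.17.0 at 95% identity over 90% of the length, and identity between copies with Biopython 1.88. Alternatives used limma 3.58.1 and DESeq2 1.42.0. Named rows were the 4 with the highest mean level per class, called rows up to 6 per comparison by p, rows driven by 1 library, all spliceosomal rows with 50 or more counts, and hosts of named rows; a few others were named after their values were seen. The fits were tested on simulated data. Within each group, every pair of libraries differed by more than sampling noise.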

Additional observations from a re-analysis of the deposited data

Results flagged for a closer look

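Of 192 checks of a named row or class sum within 1 group, 23 found a library far from the others by Dixon's ratio. Chance gives about 1 in 20 for independent checks of normally distributed values. These checks were not independent, since rows move together within a library. Some rows were also named because they were called or because 1 library drives them. The 23 can therefore not be judged against that rate. Of these, 14 were on WT day 7 replicate 3, which was high each time. In that library Snord118 had 168.3 CPM, against 27.3 to 46.3 CPM in the others of its group, Snord13 had 16.9 CPM, Snord15a 865.8 CPM and Snord55 146.7 CPM. Among H/ACA rows, it had 1274 CPM of Snora21, 746.7 CPM of Snora23, 30.4 CPM of Snora31 and 99.5 CPM of Snora41, and the H/ACA rows summed to 3416 CPM, against 1029 to 1519 CPM in the others. Among U RNA rows, it had 232.9 CPM of Rnu11, 775.1 CPM of Rnu12, 1.45 CPM of Rnu1b1, 14.6 CPM of Rnu1b2 and 7.49 CPM of Rnu5g.

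The other 9 were spread over 8 libraries. Rnu1a1 had 1076 CPM in WT day 7 replicate 5, against 0.768 to 1.59 CPM in the others. Rnu1b6 had 55.0 CPM in KO day 7 replicate 4, against 2.82 to 6.17 CPM. Rnu1b1 had 6.74 CPM in KO naive replicate 4, and Rnu1b2 had 14.7 CPM in KO naive replicate 2. Rnu2-10 had 15.2 CPM in KI day 7 replicate 3, 14.6 CPM in KO naive replicate 3 and 1.52 CPM in KI naive replicate 4. Snora21 had 546.6 CPM in KO naive replicate 3. Scarna6 was low in KO day 7 replicate 2, with 27.9 CPM against 37.9 to 39.5 CPM in the others.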

How the results depend on the processing

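No called value changed sign, but 4 medians over the rows did. That of KO at day 7 against naive was -0.13 with voom weights, -0.06 without KO day 7 replicate 1 and -0.07 without replicate 3. Without KI day 7 replicate 1, that of KI against WT at day 7 was -0.13 and that of the KI interaction -0.11. That of KI against WT in naive cells ran from -0.22 to 0.14 with 1 library left out. The averaged median was 0.42 with voom weights. Snord118, Scarna2, Rnu1b6, Snora41, Snora31 and Snord13 were called in the averaged comparison under all alternatives run. The labels give no replicate numbers that groups share, so no pairing by label was fitted; a block for runs of neighbouring library numbers was. Without a filter on low counts 98 rows entered, and 54 were called in WT, 5 in KO, 61 in KI and 65 in the averaged comparison, 10 and 35 for KO against WT in naive cells and at day 7, 1 and 13 for KI against WT, and 31 and 12 in the KO and KI interactions. Of all 29775 genes, this called 3.003% in WT, 1.814% in KO, 2.989% in KI, 6.673% averaged, 0.4937% and 1.172% for KO against WT, 0.1982% and 0.3224% for KI against WT, and 0.6818% and 0.3661% in the interactions. With voom weights 3 were called in WT, 9 in KI and 8 in the averaged comparison, against 3.509%, 4.897% and 9.821% of all genes. KI had 10 with DESeq2 (3.319% of all genes), 4 with a 5 CPM filter, 1 with library number as a covariate, 10 with only its groups fitted and 4 with counts thinned. WT had 1 with a block for runs of neighbouring library numbers and 11 with only its groups fitted. Without WT day 7 replicate 3 and KI day 7 replicate 1 together, the counts were 1 in WT, 0 in KI, 9 in the averaged comparison and 1 for KO against WT at day 7. Leaving out 1 library at a time gave 0 to 11 in WT, 0 to 28 in KI, 13 to 57 in the averaged comparison and 0 to 1 for KO against WT at day 7. Among these alternatives, the share of all genes called is given only for no filter, DESeq2 and voom weights. Counts of rows in the other settings cannot be set against genes at large. In all these settings the cause was not tested.

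Shares moved when mitochondrial, ribosomal RNA and haemoglobin genes left the total: for KO, KI and WT at day 7 and KO, KI and WT naive, C/D became 0.3768%, 0.5656%, 0.5064%, 0.3868%, 0.3435% and 0.3176%, and Cajal body rows 0.04075%, 0.0472%, 0.04912%, 0.04001%, 0.03481% and 0.03355%. H/ACA became 0.1555% in KO and 0.2183% in KI at day 7, and 0.1589%, 0.1361% and 0.1324% in KO, KI and WT naive cells. U RNA became 0.03625% in KO and 0.02711% in WT naive cells. The smaller total accounts for these by construction. With TMM and RLE scaling, Cajal body rows in WT naive cells were 0.0247% and 0.02464%. At 33% in 1 library 3 rows were driven by it, and 2 by raw counts. Rows at a few counts a library are limited by depth, above all in WT naive cells.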

Other observations

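Other small structured RNAs that are no members were listed for comparison, from a list chosen with earlier results of these data known. All 9 tested had a positive log2 fold change at day 7 averaged over genotypes, with a median of 0.41 against 0.00 for all genes. The test called 3 of the 9, all higher, where 11.2% of all genes were called and 6.16% were called higher. These were Rn7s1 and Rn7s2, the 7SL RNA of the signal recognition particle, at 0.96 (SE 0.214, edgeR adjusted p = 0.00358) and 0.49 (SE 0.115, edgeR adjusted p = 0.00554), and the vault RNA Vaultrc5 at 0.71 (SE 0.163, edgeR adjusted p = 0.00447). The RNA of RNase MRP, Rmrp, which acts on ribosomal RNA, was at 0.26 (SE 0.113, edgeR adjusted p = 0.149). Rn7sk, the 7SK RNA, was at 0.01 (SE 0.0587) and Rpph1, the RNA of RNase P, at 0.05 (SE 0.0984), and neither was called. Between KO and WT cells at day 7 all 9 were negative and 0 were called by edgeR, against 0.0476% of all genes, with a median of -0.42.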
